A study of Mus musculus with 6 samples.

Results

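Metabolites made or modified by gut bacteria reach host cells through a small set of receptors and sensors, and 10 genes for these were followed in the RNA-Seq data of bone marrow (BM) MSCs. The genes were found by symbol among the 56980 genes of the deposited table, where each had 1 entry. They encode receptors for fatty acids and related acids (*Ffar2*, *Ffar3*, *Hcar2*, *Gpr84*, *Gpr35*), a membrane receptor for bile acids (*Gpbar1*), and the aryl hydrocarbon receptor with 3 genes it is known to induce (*Ahr*, *Ahrr*, *Cyp1b1*, *Tiparp*). All samples came from mice that had undergone ovariectomy (OVX) at 8 weeks of age, had their own gut microbiota depleted with antibiotics, and then received fecal microbiota transplantation (FMT) for 8 weeks. Donors were also osteoporotic OVX mice, sedentary for the 3 samples of the TranspCtrl group and treadmill-exercised for the 3 samples of the TranspExer group. The strain is not given in the sources used here. The MSCs were marrow cells kept in culture for 7 days, and no sort for a cell type is described. The labels do not say whether each sample came from a separate mouse, so the p-values measure only the spread between these samples, which may be technical.

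Short-chain fatty acids from fermented fibre bind *Ffar2* and *Ffar3*, butyrate and ketone bodies bind *Hcar2*, and medium-chain fatty acids bind *Gpr84*. Tryptophan breakdown products such as kynurenic acid have been proposed as ligands of *Gpr35*, while indoles and kynurenines bind the aryl hydrocarbon receptor, which enters the nucleus, pairs with ARNT and switches on genes for detoxifying enzymes and for its own repressors. In marrow, the fatty acid receptors are best known from neutrophils, monocytes and macrophages, whereas the aryl hydrocarbon receptor and CYP1B1 are also found in stromal cells.

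The deposited values were estimated read counts, and totals ranged from 17647638 to 21319166 per sample after rounding. At these depths, 3 counts, used here as the floor of detection, equalled 0.139 to 0.174 CPM (counts scaled to a common library size, here the TMM-scaled one), and this floor covers counting error only. Counts were scaled by the TMM method, and 15190 genes passed the low-count filter of edgeR and were tested with its quasi-likelihood test and Benjamini-Hochberg adjustment. A gene was taken as changed at an adjusted p-value under 0.05, and as a differentially expressed gene (DEG) when its fold change was also at least 2. TranspCtrl replicate 1 stood apart from the other TranspCtrl samples on the second principal component (29.7 against -22.7 and -19). The cultures were mixed: markers of macrophages, neutrophils, B and plasma cells and endothelial cells were all detected beside stromal markers, and of the 7 marker lists examined none held a gene at 0 in all samples. In bulk RNA, fewer cells of a type and less RNA per cell cannot be told apart.

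Of the 10 genes, 8 passed the low-count filter, and 6 of these 8 changed. *Ffar2* and *Gpr35* were higher in TranspExer, and *Hcar2*, *Gpr84*, *Ahr* and *Tiparp* were lower. Among all genes tested, 32.2% changed, with 16.6% higher and 15.5% lower. Only *Ahr* and *Hcar2* were DEGs, both lower, and no tested member was an upregulated DEG. Of all tested genes 8.78% were DEGs, with 3.5% upregulated and 5.28% downregulated. *Ahrr* and *Cyp1b1* did not pass the test. *Ffar3* was not detected, and *Gpbar1* was not detected in TranspCtrl and was at a low level in TranspExer. For the 6 changed genes every TranspExer sample lay on one side of all TranspCtrl samples, a separation seen for 52.4% of all tested genes (27.2% higher and 25.1% lower). The median log2 fold change of the 8 tested genes was -0.21, against -0.02 over all genes tested.

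**Figure D1:**
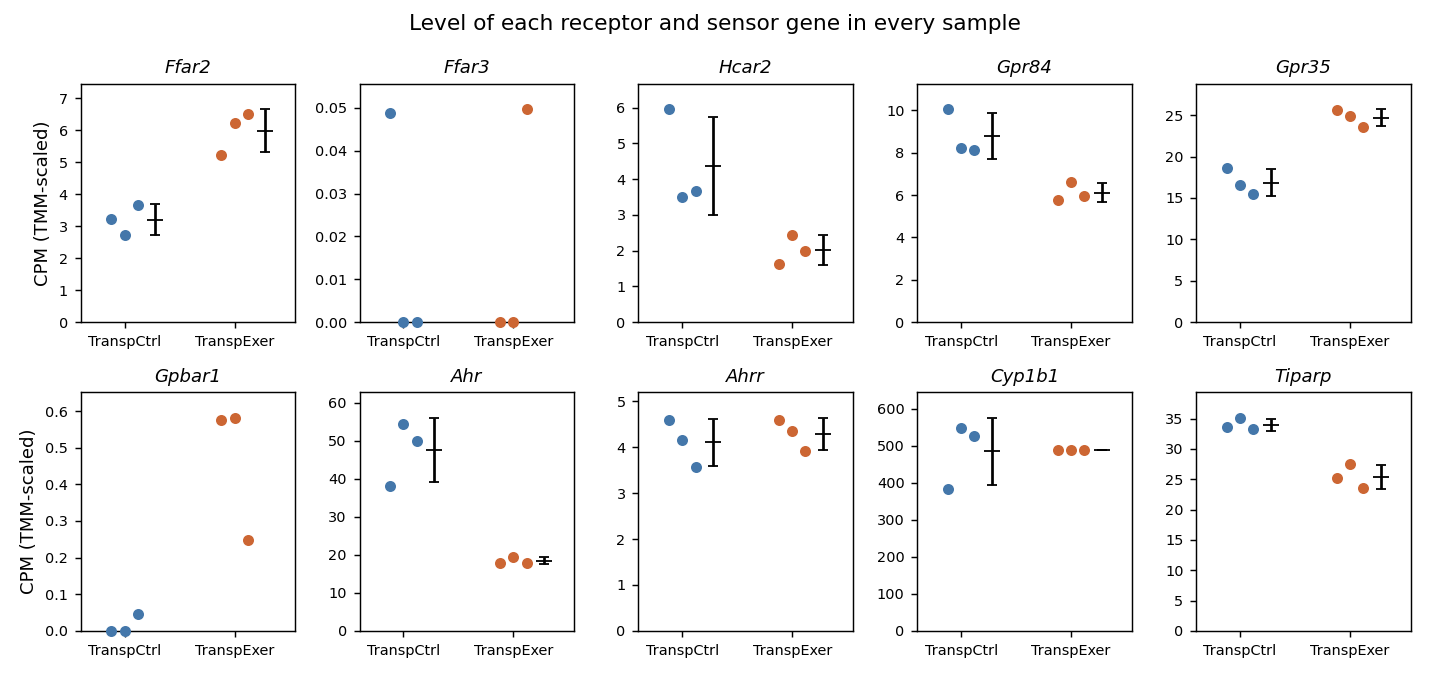
Each panel plots the CPM (TMM-scaled, linear axis from 0) of one gene in the 3 TranspCtrl and 3 TranspExer samples as points, with the mean and SD beside them for the 8 tested genes. *Ahr*, *Hcar2*, *Gpr84* and *Tiparp* were lower in every TranspExer sample, *Ffar2* and *Gpr35* were higher in every one, and *Ffar3* had at most 1 read in any sample.

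Among the fatty acid receptors, *Ffar2* (ENSMUSG00000051314) lies on the minus strand at chr7:30818348-30823775 and *Ffar3* (ENSMUSG00000019429) at chr7:30854330-30856178 of GRCm38, the build also called mm10, in the GENCODE M21 annotation. *Ffar2* encodes the receptor for acetate and propionate. It had 3.22, 2.72 and 3.67 CPM in TranspCtrl replicates 1, 2 and 3, and 5.23, 6.22 and 6.51 CPM in TranspExer replicates 1, 2 and 3. Every TranspExer sample was above every TranspCtrl sample, and the means were 3.21 ± 0.476 (SD, n = 3) and 5.99 ± 0.669 CPM (SD, n = 3). *Ffar2* rose by a log2 fold change of 0.90 (standard error, SE, 0.17, edgeR, adjusted p = 0.00659). It kept an adjusted p-value under 0.05 in all 12 alternative fits, with log2 fold changes of 0.80 to 1.01.

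*Ffar3*, its neighbour on the same chromosome and a receptor with an overlapping choice of short-chain fatty acids, had 1, 0 and 0 counts in the TranspCtrl samples and 0, 0 and 1 in the TranspExer samples. All samples lay under the floor of 3 counts, so *Ffar3* was not detected at this depth and no fold change is given.

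*Hcar2* (ENSMUSG00000045502, chr5:123863570-123865499), which encodes the receptor for nicotinic acid, butyrate and β-hydroxybutyrate, moved opposite to *Ffar2*. Its levels were 5.96, 3.49 and 3.67 CPM in the TranspCtrl samples and 1.62, 2.44 and 1.99 CPM in the TranspExer samples. The groups did not overlap, and TranspCtrl replicate 1 was well above the other samples of its group. The log2 fold change was -1.12 (SE 0.27, edgeR, adjusted p = 0.0169), the widest error among the tested members. Without TranspCtrl replicate 1 it was -0.84, so *Hcar2* was no longer a DEG. The adjusted p-value was 0.0712 without TranspExer replicate 1 and 0.0681 without TranspExer replicate 3. Read for read, *Ffar2* over *Hcar2* was 0.541, 0.779 and 1 in the TranspCtrl samples and 3.23, 2.55 and 3.27 in the TranspExer samples.

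*Gpr84* (ENSMUSG00000063234, chr15:103308235-103310612) encodes a receptor for medium-chain fatty acids that myeloid cells make when stimulated. It had 10.1, 8.21 and 8.14 CPM in the TranspCtrl samples and 5.75, 6.63 and 5.96 CPM in the TranspExer samples. All TranspExer samples were lower, and the log2 fold change was -0.53 (SE 0.14, edgeR, adjusted p = 0.0231). This call was lost when TranspExer replicate 1, 2 or 3 was left out (adjusted p = 0.0858, 0.0548 and 0.0828), while the log2 fold change stayed between -0.62 and -0.42 over all 12 alternatives. An antisense gene model, *Gm49482*, overlaps its exons on the opposite strand and had 22, 0 and 0 counts in the TranspCtrl samples and 2, 4 and 0 in the TranspExer samples.

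*Gpr35* (ENSMUSG00000026271, chr1:92950865-92986391) encodes a receptor proposed to bind kynurenic acid and is known from myeloid and intestinal cells. It had 18.6, 16.5 and 15.4 CPM in the TranspCtrl samples and 25.6, 24.9 and 23.6 CPM in the TranspExer samples. The groups did not overlap, and *Gpr35* rose by a log2 fold change of 0.55 (SE 0.10, edgeR, adjusted p = 0.00547). It passed in all 12 alternative fits (log2 fold change 0.46 to 0.63). The reads of *Gpr35* over those of *Gpr84* were 1.85, 2.01 and 1.9 in TranspCtrl and 4.46, 3.75 and 3.96 in TranspExer.

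In marrow these 4 detected receptors are best known from myeloid cells, but which cells of these mixed cultures expressed them was not tested. The markers of myeloid cells did not move in 1 direction. Of 12 monocyte and macrophage markers, 2 were higher (*Cd68*, *Fcgr1*) and 3 lower (*Lyz2*, *Mrc1*, *Ccr2*) in TranspExer, with a median log2 fold change of -0.01. Their summed level was 9203 to 14133 CPM in TranspCtrl and 7330 to 7956 CPM in TranspExer. The log2 fold changes of these 5 ran from -1.14 (*Lyz2*) to 0.78 (*Cd68*), and the other 7, among them *Csf1r*, *Adgre1* and *Itgam*, did not pass the test. The largest share of the sum was *Lyz2*, with 9102, 4895 and 5238 CPM in the TranspCtrl samples and 3235, 2897 and 2596 CPM in the TranspExer samples. Of 12 neutrophil markers, 4 were higher and 2 lower, and the sum was 3311 to 4390 CPM in TranspCtrl and 5633 to 5851 CPM in TranspExer. Without *Mpo* and *Elane*, granule genes of neutrophil progenitors with log2 fold changes of 2.47 and 2.16, the sums overlapped, at 2971 to 4165 CPM in TranspCtrl and 3910 to 4277 CPM in TranspExer. The other 2 that rose were *Csf3r* and *Ngp* (log2 fold changes 0.53 and 0.53), and the 2 that fell were *Ly6g* and *Cxcr2* (-0.54 and -0.56). The remaining markers, *S100a8*, *S100a9*, *Camp*, *Retnlg*, *Mmp8* and *Ltf*, did not pass the test. Of 8 eosinophil markers, 7 were higher and 1 lower, with sums of 41.3 to 48.6 and 123 to 134 CPM. The part of these cells in the receptor results was not tested.

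The bile acid receptor *Gpbar1* (ENSMUSG00000064272, chr1:74278550-74279624), also known as TGR5, raises cAMP when bile acids bind it. It had 0, 0 and 1 counts in TranspCtrl replicates 1, 2 and 3 and 11, 10 and 5 counts in TranspExer replicates 1, 2 and 3. Each TranspCtrl sample was under the floor and each TranspExer sample above it. Against the 1 read in TranspCtrl, the 26 reads in TranspExer gave a ratio of 28.3 after scaling, with a 95% counting interval (exact binomial) of 4.65 to 1161. In CPM, the TranspExer samples had 0.575, 0.581 and 0.248. *Gpbar1* did not pass the low-count filter, so the fit across genes gave it no p-value, and an exact two-sided permutation test on its CPM gave p = 0.1, the smallest that 3 samples against 3 allow. Without a low-count filter it had an adjusted p of 0.00354 from edgeR. When 1 sample was left out the filter asked for fewer samples, and *Gpbar1* then passed it in 4 of 6 fits through its TranspExer samples alone, so those fits are not used as support.

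Of 21 other receptors, transporters and enzymes for bile acids, 10 had at most 3 counts in every sample, among them the genes of the nuclear bile acid receptor (*Nr1h4*) and of the ileal transporter (*Slc10a2*). The remaining list gave 6 tested genes, of which 2 were higher and 1 lower, with a median log2 fold change of 0.25. *S1pr2*, whose product also binds conjugated bile acids, had 52.2, 56.5 and 51.6 CPM in TranspCtrl and 74.4, 74.3 and 80.7 CPM in TranspExer (log2 fold change 0.52, edgeR adjusted p = 0.00217). *Abcc3*, an exporter of organic anions including bile salts, rose by a log2 fold change of 0.89 (adjusted p = 0.00216). *Cyp7b1*, an oxysterol hydroxylase, was the downregulated DEG of this list (log2 fold change -1.18, adjusted p = 0.00841), but not without TranspExer replicate 1 (-0.99). The vitamin D receptor gene *Vdr*, whose product also senses lithocholic acid, had a log2 difference of -0.14 (adjusted p = 0.292).

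Taurine, which conjugates bile acids, has no receptor among the 10 genes, and its handling genes were listed beside them. Of 8 such genes 6 were tested, and 3 were higher and 1 lower. One of the higher calls, *Ado* (edgeR adjusted p = 0.0482), was lost in 6 of the 12 alternatives, with adjusted p-values up to 0.132. The taurine transporter gene *Slc6a6* had 355, 448 and 431 CPM in TranspCtrl and 645, 652 and 684 CPM in TranspExer, a log2 fold change of 0.68 (SE 0.10, edgeR, adjusted p = 0.00248). *Fmo1*, a flavin monooxygenase that oxidizes hypotaurine to taurine, was a downregulated DEG (log2 fold change -1.04, adjusted p = 0.00261). It fell short of a fold change of 2 without TranspCtrl replicate 1, TranspCtrl replicate 2 or TranspExer replicate 3 (log2 fold changes -0.998, -0.980 and -0.953), where it still passed the test. *Csad* and *Cdo1*, which act earlier in taurine synthesis, had log2 differences of -0.01 and 0.10 (edgeR adjusted p = 0.947 and 0.691).

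*Ahr* (ENSMUSG00000019256, chr12:35497974-35535038), the ligand-activated transcription factor, had the largest log2 fold change among the 8 tested members. Its levels were 38.0, 54.4 and 50.0 CPM in TranspCtrl and 17.8, 19.5 and 17.9 CPM in TranspExer. The lowest TranspCtrl sample, replicate 1, was still well above the highest TranspExer sample. The means of 47.5 ± 8.48 (SD, n = 3) and 18.4 ± 0.932 CPM (SD, n = 3) gave a log2 fold change of -1.37 (SE 0.14, edgeR, adjusted p = 0.000372). *Ahr* was a downregulated DEG in all 12 alternative fits, with log2 fold changes of -1.51 to -1.26, but the fit that tested a fold change of 2 within the model did not call it. An overlapping gene model on the opposite strand, *Gm48236*, had 0 counts in every sample.

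*Tiparp* (ENSMUSG00000034640, chr3:65528410-65555518) encodes an ADP-ribosyltransferase that the receptor induces and that in turn restrains it. It had 33.6, 35.1 and 33.2 CPM in TranspCtrl and 25.2, 27.5 and 23.6 CPM in TranspExer. The groups did not overlap, and *Tiparp* fell by 0.42 on the log2 scale (SE 0.09, edgeR, adjusted p = 0.00944), which held in all 12 alternatives. A processed pseudogene model overlaps its exons on the opposite strand with 26 to 42 counts per sample, against 474 to 715 counts for *Tiparp*.

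*Cyp1b1* (ENSMUSG00000024087, chr17:79701537-79715061), the monooxygenase of the pathway that stromal cells express, had 382, 548 and 526 CPM in TranspCtrl and 488, 488 and 488 CPM in TranspExer. The TranspExer values lay within the TranspCtrl range, and their SD of 0.428 CPM (n = 3) was smaller than the counting error alone, about 1.04% of the level. The log2 fold change was 0.01 (SE 0.13, edgeR, adjusted p = 0.972). Without TranspCtrl replicate 1, the lowest sample, it was -0.14 and passed the test (adjusted p = 0.0296), and its sign also turned under other scalings. *Ahrr* (ENSMUSG00000021575, chr13:74211118-74292331), the repressor that competes with the receptor for ARNT, had 4.59, 4.16 and 3.58 CPM in TranspCtrl and 4.6, 4.36 and 3.92 CPM in TranspExer. These ranges overlapped, and its log2 fold change of 0.06 (SE 0.16, adjusted p = 0.78) was negative in 3 of the 12 alternatives.

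Within a library, the reads of *Cyp1b1* over those of *Ahr* numbered 10.05, 10.07 and 10.51 in TranspCtrl and 27.45, 25.04 and 27.19 in TranspExer. The corresponding ratios of *Tiparp* over *Ahr* were 0.884, 0.645 and 0.664 in TranspCtrl and 1.42, 1.42 and 1.32 in TranspExer. TranspCtrl replicate 1, which was lowest of its group for both *Ahr* and *Cyp1b1*, was no exception in the first ratio and the highest of its group in the second.

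**Figure D2:**
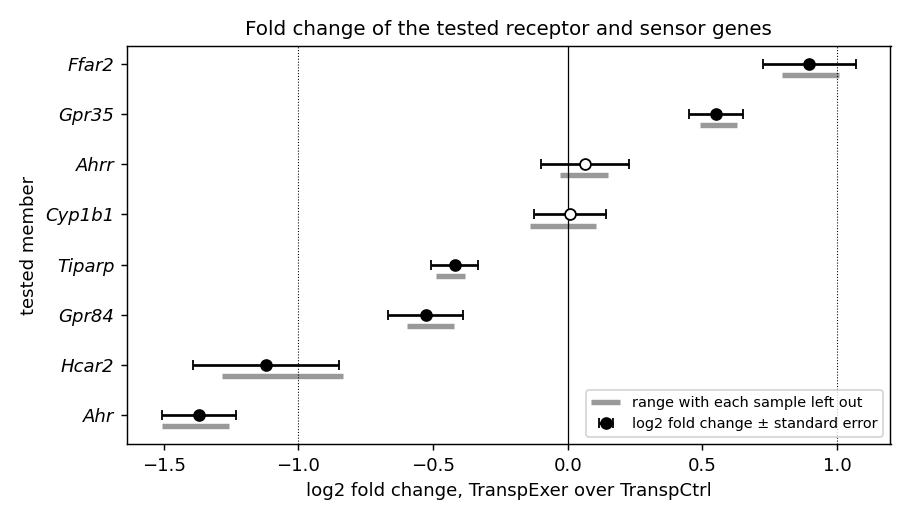
Points are the log2 fold changes of TranspExer over TranspCtrl with standard errors for the 8 tested genes, filled where the adjusted p-value was under 0.05, grey bars the range with each sample left out in turn, and dotted lines a fold change of 2. *Ahr* (-1.37) and *Hcar2* (-1.12) lay beyond the line, *Ffar2* (0.90) lay short of it, and the bars of *Ahrr* and *Cyp1b1* crossed 0.

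The aryl hydrocarbon receptor binds DNA with ARNT at a core of GCGTG, the xenobiotic response element, so the 250 bases before each annotated RefSeq start (GRCm38.p6) were searched on both strands for GCGTG and for the longer TNGCGTG, which contains it. Of the 10 genes, 8 had an entry, and *Hcar2* and *Ahr* had none. The core was present for *Ahrr* (3 matches), *Cyp1b1*, *Tiparp* and *Ffar2* (1 match each, for *Ffar2* in 1 of its 4 annotated windows), and 28.2% of all 32851 windows hold it. The longer form occurred once, in the *Ahrr* match nearest the start, and 4.1% of all windows hold it. The 30-base stretches of the 3 target genes are shown because they carry the letters that the receptor is known to read. They are written 5′ to 3′ on the strand of the gene, with the core in capitals, which reads CACGC where the match is on the other strand.
Ahrr, minus strand, chr13:74292421-74292450: tattgaaagggcGCGTGgcaggcagggaca
Ahrr, minus strand, chr13:74292396-74292425: ggacaaggatgtGCGTGcgccctctgccgc
Ahrr, minus strand, chr13:74292341-74292370: gcggggcggctcGCGTGctggggtggggct
Cyp1b1, minus strand, chr17:79715120-79715149: cgtcccgcccctCACGCcccaccccctaag
Tiparp, plus strand, chr3:65528265-65528294: ctccgtccggagCACGCgcacgggaggcgg
A match describes these letters only and is no evidence of binding. The 4 genes with a match, *Ahrr*, *Cyp1b1*, *Tiparp* and *Ffar2*, had log2 fold changes of 0.06, 0.01, -0.42 and 0.90.

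Of 12 further genes of the aryl hydrocarbon receptor system, 10 were tested. Of these, 5 had a positive and 5 a negative log2 fold change, with a median of -0.04. At the adjusted p-value, none was higher and 3 were lower in TranspExer. The classical target *Cyp1a1* had at most 2 counts in any sample and *Cyp1a2* had none, so these were not detected. *Cyp2s1*, a cytochrome P450 gene that dioxin induces, was the only DEG of the list, with 3.08, 4.21 and 4 CPM in TranspCtrl and 0.523, 0.232 and 0.546 CPM in TranspExer (log2 fold change -3.07, SE 0.31, edgeR adjusted p = 0.000372). In TranspExer *Cyp2s1* had 10, 4 and 11 counts, so it passed the low-count filter through the TranspCtrl samples, where it was high. With no low-count filter its edgeR adjusted p was 2.6e-07. *Ugt1a6a* had a log2 difference of -0.75 (adjusted p = 0.00511), but it shares exons with the other genes of its cluster, so its counts are uncertain. The partner gene *Arnt* had a log2 difference of 0.07 (adjusted p = 0.705), and *Nqo1* had one of -0.37 (adjusted p = 0.129). *Arnt2* was the other gene that was lower (log2 fold change -0.70, edgeR adjusted p = 0.0326), and this call was lost in 8 of the alternatives, where the adjusted p-value reached 0.107.

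Stromal markers moved beside *Ahr*. Of 12 such markers, 9 fell and 1 rose in TranspExer (median of log2 fold changes -0.66), and their summed level was 11950 to 19682 CPM in TranspCtrl and 12572 to 13810 CPM in TranspExer. The overlap came from TranspCtrl replicate 1 (11950 CPM), as the other TranspCtrl samples had 19682 and 18996 CPM. The largest shares of the sum were *Col1a1* and *Col1a2*. *Col1a1* had 4563, 9951 and 9613 CPM in TranspCtrl and 6795, 7164 and 7708 CPM in TranspExer, and did not pass the test (edgeR adjusted p = 0.674). Endothelial markers were higher for 10 of 10 genes, with sums of 223 to 269 and 723 to 792 CPM, and 8 of 10 B and plasma cell markers were lower, with sums of 1838 to 2165 and 596 to 628 CPM. Of 10 T and NK cell markers, 2 were higher and 1 lower, with sums of 61.6 to 64.9 and 81.7 to 87.4 CPM. The part of these cells in the change of *Ahr* was not tested.

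Of 13 enzymes that act on tryptophan, on kynurenine or on their products, 7 were tested and all 7 had a negative log2 fold change (median -0.49), but only *Kmo* passed the test. *Kmo*, kynurenine 3-monooxygenase, had 6.84, 6.31 and 6.09 CPM in TranspCtrl and 3.19, 3.72 and 3.58 CPM in TranspExer (log2 fold change -0.88, SE 0.14, edgeR adjusted p = 0.00315). *Ido1*, the enzyme that opens the pathway in immune cells, did not pass the low-count filter, with no more than 4 counts in any sample.

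Of 13 further receptors and carriers for fatty acids and lactate, 7 were tested, with 1 higher and 2 lower (median log2 fold change -0.28). *Slc16a3*, the lactate exporter MCT4, and *Bsg*, the chaperone that brings it to the membrane, had log2 differences of -0.55 and -0.90 (edgeR adjusted p = 0.00586 and 0.000619). *Slc16a1*, which carries short-chain fatty acids and lactate as MCT1, had a log2 difference of -0.12 (adjusted p = 0.582). *Olfr558*, an olfactory-type receptor gene for short carboxylic acids, had 4, 1 and 5 counts in the TranspCtrl samples and 14, 20 and 13 in the TranspExer samples, and was the upregulated DEG of the list (log2 fold change 2.33, SE 0.50, edgeR adjusted p = 0.0109). It passed the low-count filter only through the TranspExer samples, where it was high. Its edgeR adjusted p was 0.00581 with no low-count filter, and it was not tested when at least 1 CPM in 3 samples was required.

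Downstream of the membrane receptors, 15 genes for G protein α subunits, arrestins and receptor kinases were all tested and all had a positive log2 fold change, with a median of 0.38. Of these, 10 were higher in TranspExer and none was a DEG. The call of *Arrb1* was lost without TranspExer replicate 3 (edgeR adjusted p = 0.0526). Over all related lists together, higher genes numbered 16, and 10, 10 and 9 without TranspExer replicate 1, 2 or 3. *Gnai2*, the inhibitory subunit used by the fatty acid receptors in leukocytes, had 471, 640 and 640 CPM in TranspCtrl and 867, 890 and 894 CPM in TranspExer (log2 fold change 0.60, edgeR adjusted p = 0.00997). *Gnas*, the stimulatory subunit used by *Gpbar1*, had a log2 difference of 0.58 (adjusted p = 0.0472), and this call was lost in 4 alternatives. Without TranspExer replicate 1, 2 or 3, its adjusted p-values were 0.131, 0.115 and 0.112.

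**Figure D3:**
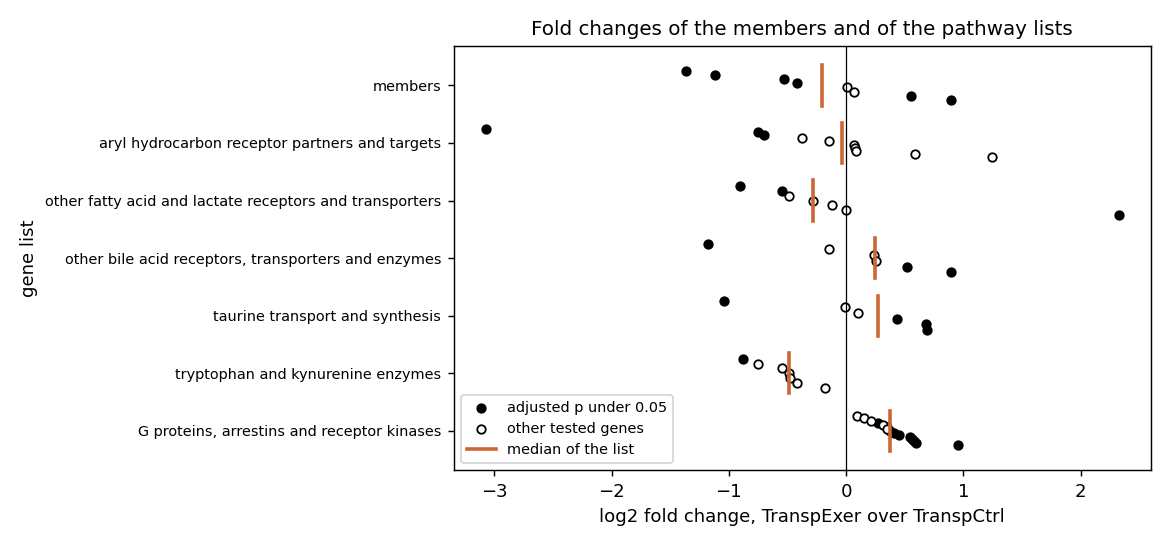
Each point is the log2 fold change of a tested gene, TranspExer over TranspCtrl, filled where the adjusted p-value was under 0.05, for the 8 tested members and the 6 lists of related genes, with the list's median as a vertical bar. All 15 genes of the G protein list lay above 0 and all 7 tryptophan enzymes below it, and the other lists held genes on either side.

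The levels of the members were compared per kilobase of the gene length that the table gives, in CPM per kilobase. *Cyp1b1* was the most abundant by far, with 94.6 ± 17.5 (SD, n = 3) in TranspCtrl and 95.1 ± 0.0834 (SD, n = 3) in TranspExer. In TranspCtrl, *Ahr* (8.56 ± 1.53) and *Tiparp* (8.11 ± 0.235) came next and overlapped, followed by *Gpr84* (5.10 ± 0.631) and *Gpr35* (4.00 ± 0.382). *Ffar2* (2.65 ± 0.394) and *Hcar2* (2.27 ± 0.712) overlapped, and *Ahrr* (0.864 ± 0.107) was lowest among the tested members. In TranspExer, *Tiparp* (6.07 ± 0.475) and *Gpr35* (5.86 ± 0.245) came next and overlapped, and *Ffar2* (4.95 ± 0.553) lay above *Gpr84* (3.54 ± 0.264), which overlapped *Ahr* (3.32 ± 0.168). *Hcar2* (1.04 ± 0.213) and *Ahrr* (0.904 ± 0.0724) overlapped at the bottom. The untested *Gpbar1* was at 0.436 ± 0.177 in TranspExer. The place of *Ffar2* depends on the length used, which was 1210 bases, while its longest annotated transcript has 2301. Without division by length, *Ffar2* (mean 5.99 CPM) and *Gpr84* (mean 6.11 CPM) overlapped in TranspExer. All these errors are SDs of 3 samples.

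**Figure D4:**
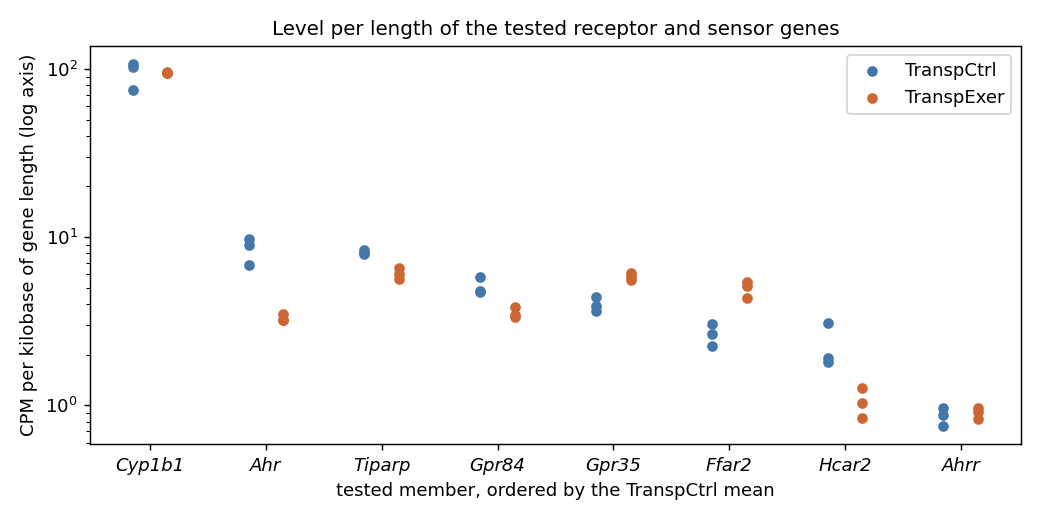
The level of each tested gene in CPM per kilobase of gene length is plotted on a log axis for every sample, with genes ordered by their TranspCtrl mean. *Cyp1b1* lay far above the other genes in both groups, and *Ahr* moved from second place to the level of *Gpr84*. At the gene lengths used, *Ffar2* and *Gpr35* rose above *Gpr84*, which for *Ffar2* depends on the length taken.

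Genes with the most similar pattern were sought among 9671 tested genes with a mean of at least 10 CPM, by the root mean square difference of centred log2 CPM over the 6 samples. *Gpr84* and *Tiparp* were the most similar pair of members, at 0.125. Closest to *Ahr* were *Lrrc15* and *Tnn* (0.105 and 0.107), which had log2 fold changes of -1.35 and -1.44. *Gpr35* was closest to *Alas1* and *Hmox1* (0.0356 and 0.0367), *Ffar2* to *Aatk* and *Cd180* (0.119 and 0.121), and *Hcar2* to *Ier3* and *Dync2h1* (0.145 and 0.15). *Gpr84* was closest to *Zfp62* and *Riok1* (0.0217 and 0.0287), and *Tiparp* to *Cd109* and *Pros1* (0.0232 and 0.0421). *Cyp1b1* was closest to *Lats1* and *Thap2* (0.0215 and 0.0283), and *Ahrr* to *2210016L21Rik* and *Crlf3* (0.0381 and 0.0408).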

How the data were processed

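RNA-Seq counts were taken for 3 TranspCtrl and 3 TranspExer samples of BM MSCs, grouped by the sample labels. The authors deposited estimated counts (expected counts) per gene, not normalized, of which 10.1% to 12.2% per sample were not whole, and they were rounded here. The submitters' processing notes name mm10. The aligner, the counter and the test for DEGs are not given in the sources used here. The methods name a TruSeq kit, the labels a stranded one. Gene positions came from GENCODE M21, where 52073 identifiers were found and 97.2% of the deposited lengths equalled a transcript's.

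Testing used edgeR 4.0.16 in R 4.3.3 (filterByExpr, TMM, quasi-likelihood test, condition only), with the study's thresholds. The SE of a log2 fold change is its size over the square root of F. Members and lists were chosen with earlier results of these data known. Named from the lists are up to 4 DEGs each with the smallest adjusted p-value, and for each tested member the 2 genes with the most similar pattern. The other genes named with values were chosen after their values were seen. In simulated data for this comparison (15032 genes, 197 changed by 1.5 on the log2 scale), edgeR recovered 99% and DESeq2 1.42.0 96.4%. Alternatives were DESeq2, other normalizations and filters, a replicate block, a fold change tested in the model (glmTreat), and each sample left out.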

Additional observations from a re-analysis of the deposited data

How the results depend on the processing

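For the 8 tested members, 82 of 96 values under 12 alternatives kept their direction and their side of the threshold. The exceptions were the lost calls of *Hcar2* and *Gpr84* given above (5 values) and 9 reversals of genes near 0. *Ahrr* turned to -0.0172 with upper-quartile normalization and -0.0251 with library size only, and ranged from -0.0286 (without TranspCtrl replicate 3) to 0.151 with each sample left out. *Cyp1b1* turned to -0.0655 with upper-quartile normalization, -0.0725 with library size only, -0.0037 with no low-count filter and -0.0172 with at least 1 CPM in 3 samples. With each sample left out it ranged from -0.139 (without TranspCtrl replicate 1) to 0.105, and was -0.0035 without TranspExer replicate 3. With each sample left out, the members lower at the adjusted p-value numbered 2 to 5, against 4, with 2 without TranspExer replicate 1 or 3 and 5 without TranspCtrl replicate 1. The downregulated DEGs among members then numbered 1 to 2, against 2, and 0 when the fold change of 2 was tested in the model. The upregulated DEGs among members then numbered 0 to 2, against 0, and 1 with no low-count filter. *Gpbar1* accounts for these, except for *Ffar2* without TranspCtrl replicate 3. In the fits with a sample left out *Gpbar1* passed the filter only through the TranspExer samples, where it was high, so these counts are no support for its change. Over all genes, 2523 were higher and 2361 lower, which became 1315 to 3417 and 1325 to 3041 with each sample left out, with the lowest counts without TranspExer samples. The split was 2013 higher and 2962 lower with library size only, and 2052 and 2901 with upper-quartile normalization, where the median log2 fold change of all genes was -0.105 and -0.0974. In the 6 related lists, 16 genes were higher and 8 lower, against 9 to 18 and 7 to 12 with samples left out. These became 12 higher and 11 lower with upper-quartile normalization, and 13 and 11 with library size only. The signs of the 15 G protein genes and the 7 tryptophan enzymes were the same in every one of the 12 alternatives. The upregulated DEG, *Olfr558*, became 0 DEGs with at least 1 CPM in 3 samples, 2 with no low-count filter and 1 to 2 with samples left out. With the replicate block, 2 members were higher and 4 lower and 2484 genes were higher and 2218 lower overall. Deviations of same-numbered samples correlated at -0.0017 to 0.0416, and not every sample correlated best with its own number, so the numbers were not taken as pairs. All 16 genes most like a member were the same with a prior count of 0.5. The cause of these moves was not tested. *Ffar3* and the TranspCtrl level of *Gpbar1* were limited by depth.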
